A study of Mus musculus with 6 samples.

Results

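The 9 genes described here, Pf4, Ppbp, Itga2b, Gp1ba, Gp1bb, Gp9, Gp5, Vwf and Treml1, are genes of megakaryocytes and of the platelets that these cells release. They were taken from a list of names and looked up in the deposited table of reads per gene, and all 9 were among its 47729 genes and among the 15330 genes with enough reads to be tested. Spleen RNA of 3 NOD.B10 females and 3 BL/10 females was sequenced, and NOD.B10 (NOD.B10Sn-H2b/J) mice develop a disease used as a model of primary Sjögren's syndrome while BL/10 (C57BL10/SnJ) mice served as controls. The labels give an age of 26 weeks for the 3 NOD.B10 mice and for BL/10 replicate 1, and 36 weeks for BL/10 replicates 2 and 3, whereas the text on the design describes the strains as age-matched. The libraries held 16476126, 16257041 and 17160323 counted reads in NOD.B10 replicates 1, 2 and 3 and 18298451, 15662712 and 17935130 in BL/10 replicates 1, 2 and 3.

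The sources do not name the strains of these libraries in the same way. The column names of the table and the sample descriptions were followed here, and the sample titles and strain fields name the opposite strain for all 6 libraries. Every direction given here would be reversed under the titles. The paper lists T cell receptor signaling among the pathways enriched in NOD.B10. That list was drawn from these same libraries. Of 11 T cell genes, 8 passed the edgeR test used below as higher in the libraries taken here as NOD.B10, as did 1396 of all 15330 genes tested. Which of the namings is right was not tested. The description of BL/10 replicate 3 also carries another sequencing index number than its column, and it was matched by library number and strain name.

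Megakaryocytes are large polyploid cells that mature in the bone marrow and, in mice, also in the red pulp of the spleen, and they shed platelets into the blood. The spleen also stores a part of the circulating platelets, so spleen RNA holds transcripts of both. Platelets stick to injured vessel walls through the GPIb-IX-V complex, which binds von Willebrand factor, are linked to each other by fibrinogen held by an integrin, and release chemokines from their alpha granules.

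The 9 genes moved up and down together over the libraries, and their mean levels were lower in NOD.B10 than in BL/10 for all 9. In edgeR's quasi-likelihood test, with p-values adjusted over the 15330 genes, 2 of the 9 passed an adjusted p under 0.05, Treml1 and Gp9, and both fell in NOD.B10. Of all genes tested 17.3% passed in either direction and 8.22% passed as lower in NOD.B10, so that 2 of 9, read beside these shares, is not a result about the 9 genes as a group. The median log2 fold change was -0.58 over the 9 genes and 0.00 over all genes tested, and an unadjusted p under 0.05 was found for 5 of the 9 and for 5243 of the 15330 genes. In bulk RNA of a whole spleen, fewer megakaryocytes or platelets and less RNA of these genes in each of them cannot be told apart. Counts below are as deposited, and levels are CPM, the counts relative to the TMM-normalized total of their library, given as mean ± SD of 3 libraries. The share of a gene in a summed level is the mean of its shares in the 6 libraries. Fold changes are NOD.B10 over BL/10, with the standard error (SE) in the same sentence.

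The chemokines of the alpha granules were the most abundant of these genes per length of exon. Pf4 (ENSMUSG00000029373) encodes platelet factor 4, a chemokine that binds heparin. It had 1974, 2191 and 1603 counts in NOD.B10 replicates 1, 2 and 3 and 3453, 1583 and 2502 counts in BL/10 replicates 1, 2 and 3. Levels were 114 ± 22.5 CPM in NOD.B10 and 145 ± 40.8 CPM in BL/10, a log2 fold change of -0.35 with an SE of 0.22 (edgeR adjusted p = 0.306). That log2 fold change was -0.13 without BL/10 replicate 1 and -0.53 without BL/10 replicate 2. The strains overlapped, since BL/10 replicate 2 at 106 CPM lay below NOD.B10 replicates 1 and 2 at 118 and 135 CPM. Ppbp (ENSMUSG00000029372) encodes pro-platelet basic protein, from which a neutrophil-attracting chemokine is cut. Replicates 1, 2 and 3 gave 6155, 7471 and 5467 counts (NOD.B10) against 13728, 5955 and 9655 counts (BL/10). Levels were 378 ± 76.3 CPM in NOD.B10 and 565 ± 174 CPM in BL/10, a log2 fold change of -0.58 with an SE of 0.24 (edgeR adjusted p = 0.135). That log2 fold change was -0.33 without BL/10 replicate 1 and -0.77 without BL/10 replicate 2. BL/10 replicate 1 had the highest level at 746 CPM, and BL/10 replicate 2 at 399 CPM lay between NOD.B10 replicate 1 at 368 CPM and NOD.B10 replicate 2 at 459 CPM. Both genes lie on the plus strand of chromosome 5 (GRCm38), Ppbp at 90768518 to 90770063 and Pf4 at 90772435 to 90773383, with 2371 bases between them.

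Itga2b (ENSMUSG00000034664, chromosome 11, 102453297 to 102470122, minus strand) encodes the alpha chain of the integrin that holds fibrinogen. The libraries held 1877, 2074 and 1514 counts (NOD.B10) against 3622, 1607 and 3179 counts (BL/10). Levels were 108 ± 21.4 CPM in NOD.B10 and 162 ± 47.4 CPM in BL/10, a log2 fold change of -0.58 with an SE of 0.24 (edgeR adjusted p = 0.131). BL/10 replicates 1 and 3 were above every NOD.B10 library, and BL/10 replicate 2 at 108 CPM was inside the NOD.B10 range of 85.1 to 127 CPM. Without that library Itga2b passed the test with a log2 fold change of -0.80 (edgeR adjusted p = 0.0366).

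The GPIb-IX-V complex is built from the products of 4 of the genes. Gp1ba (ENSMUSG00000050675, chromosome 11, 70639122 to 70642036, plus strand) encodes the chain that binds von Willebrand factor. Replicates 1, 2 and 3 gave 442, 440 and 326 counts (NOD.B10) against 858, 338 and 729 counts (BL/10). Levels were 23.9 ± 4.87 CPM in NOD.B10 and 36.9 ± 12.6 CPM in BL/10, a log2 fold change of -0.63 with an SE of 0.27 (edgeR adjusted p = 0.144). BL/10 replicate 2 at 22.7 CPM lay inside the NOD.B10 range, and without it Gp1ba passed the test with a log2 fold change of -0.88 (edgeR adjusted p = 0.0299). Gp1bb (ENSMUSG00000050761, chromosome 16, 18620319 to 18622403, minus strand) encodes the chain joined to it by disulfide bonds. The libraries held 382, 417 and 313 counts (NOD.B10) against 739, 324 and 577 counts (BL/10). Levels were 22.0 ± 4.08 CPM in NOD.B10 and 31.5 ± 9.27 CPM in BL/10, a log2 fold change of -0.52 with an SE of 0.23 (edgeR adjusted p = 0.154). For Gp1bb the log2 fold change was -0.32 without BL/10 replicate 1 and -0.73 without BL/10 replicate 2. The strains overlapped at BL/10 replicate 2, at 21.7 CPM. Of the 1881 exon bases of Gp1bb, 593 (31.5%) are also exon of Sept5, which lies on the same strand. Reads that lie on both genes are not counted with the default settings of the counting program, so the counts of Gp1bb are uncertain to that extent. No other gene of the 9 shared exon bases with another annotated gene.

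Gp9 (ENSMUSG00000030054, chromosome 6, 87778072 to 87779768, plus strand) encodes the small subunit that the complex needs to reach the cell surface. Replicates 1, 2 and 3 gave 488, 536 and 421 counts (NOD.B10) against 1005, 533 and 782 counts (BL/10). These were 29.2, 32.9 and 23.7 CPM in NOD.B10 and 54.6, 35.7 and 44.4 CPM in BL/10, so that all BL/10 libraries lay above all NOD.B10 libraries. Gp9 fell by 0.65 on the log2 scale with an SE of 0.18 (edgeR adjusted p = 0.0424). Across all genes tested 38% had strains that did not overlap, as had 2 of the 9 genes, Gp9 and Treml1. The call was lost with any 1 library left out other than BL/10 replicate 2, with edgeR adjusted p between 0.0506 without NOD.B10 replicate 2 and 0.145 without NOD.B10 replicate 3. It was also lost with upper-quartile normalization (edgeR adjusted p = 0.0550) and with only genes of at least 10 counts in every library (0.0504). Gp5 (ENSMUSG00000047953, chromosome 16, 30307686 to 30310779, minus strand) encodes the subunit that thrombin cleaves. The libraries held 511, 627 and 379 counts (NOD.B10) against 964, 415 and 810 counts (BL/10). Levels were 30.1 ± 8.61 CPM in NOD.B10 and 42.1 ± 12.7 CPM in BL/10, a log2 fold change of -0.49 with an SE of 0.27 (edgeR adjusted p = 0.247). For Gp5 the log2 fold change was -0.28 without NOD.B10 replicate 3 and -0.71 without BL/10 replicate 2. Here BL/10 replicate 2 at 27.8 CPM was below NOD.B10 replicates 1 and 2, at 30.6 and 38.5 CPM.

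Vwf (ENSMUSG00000001930, chromosome 6, 125546774 to 125686679, plus strand) encodes von Willebrand factor, the ligand of the complex, which endothelial cells make as well as megakaryocytes. Replicates 1, 2 and 3 gave 1635, 1603 and 1380 counts (NOD.B10) against 2369, 1198 and 2388 counts (BL/10). Levels were 91.3 ± 11.9 CPM in NOD.B10 and 115 ± 30.1 CPM in BL/10, a log2 fold change of -0.33 with an SE of 0.20 (edgeR adjusted p = 0.276). That log2 fold change was -0.21 without BL/10 replicate 3 and -0.54 without BL/10 replicate 2. Vwf was the only one of the 9 genes with its highest level in BL/10 replicate 3, at 136 CPM, and BL/10 replicate 2 at 80.3 CPM was below NOD.B10 replicates 1 and 2. Of 13 endothelial genes, 2 rose and 1 fell in edgeR at an adjusted p under 0.05, with a median log2 fold change of 0.03. The summed endothelial level was 1060, 892 and 1074 CPM in NOD.B10 and 824, 829 and 1022 CPM in BL/10, and Pecam1, an adhesion molecule, was its most abundant gene with 19.3% of the sum. Pecam1 rose by a log2 fold change of 0.59 with an SE of 0.14 (edgeR adjusted p = 0.0262), and Emcn, a sialomucin of venous endothelium, fell by 1.00 on the log2 scale with an SE of 0.26 (edgeR adjusted p = 0.0380). The part of endothelial cells in the level of Vwf was not tested.

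Treml1 (ENSMUSG00000023993, chromosome 17, 48359916 to 48367174, plus strand) encodes a receptor of the alpha granule membrane that reaches the platelet surface on activation. The libraries held 376, 407 and 289 counts (NOD.B10) against 920, 391 and 758 counts (BL/10). These were 22.5, 25.0 and 16.2 CPM in NOD.B10 and 50.0, 26.2 and 43.1 CPM in BL/10. The strains did not overlap, but BL/10 replicate 2 lay close to NOD.B10 replicate 2. Treml1 fell by 0.91 on the log2 scale with an SE of 0.25 (edgeR adjusted p = 0.0447), the largest fall of the 9 genes. As for Gp9, the call was lost with any 1 library left out other than BL/10 replicate 2, with edgeR adjusted p between 0.0610 without NOD.B10 replicate 2 and 0.1496 without NOD.B10 replicate 3. Upper-quartile normalization (edgeR adjusted p = 0.0540) and the minimum of 10 counts (0.0517) ended it too.

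**Figure D1:**
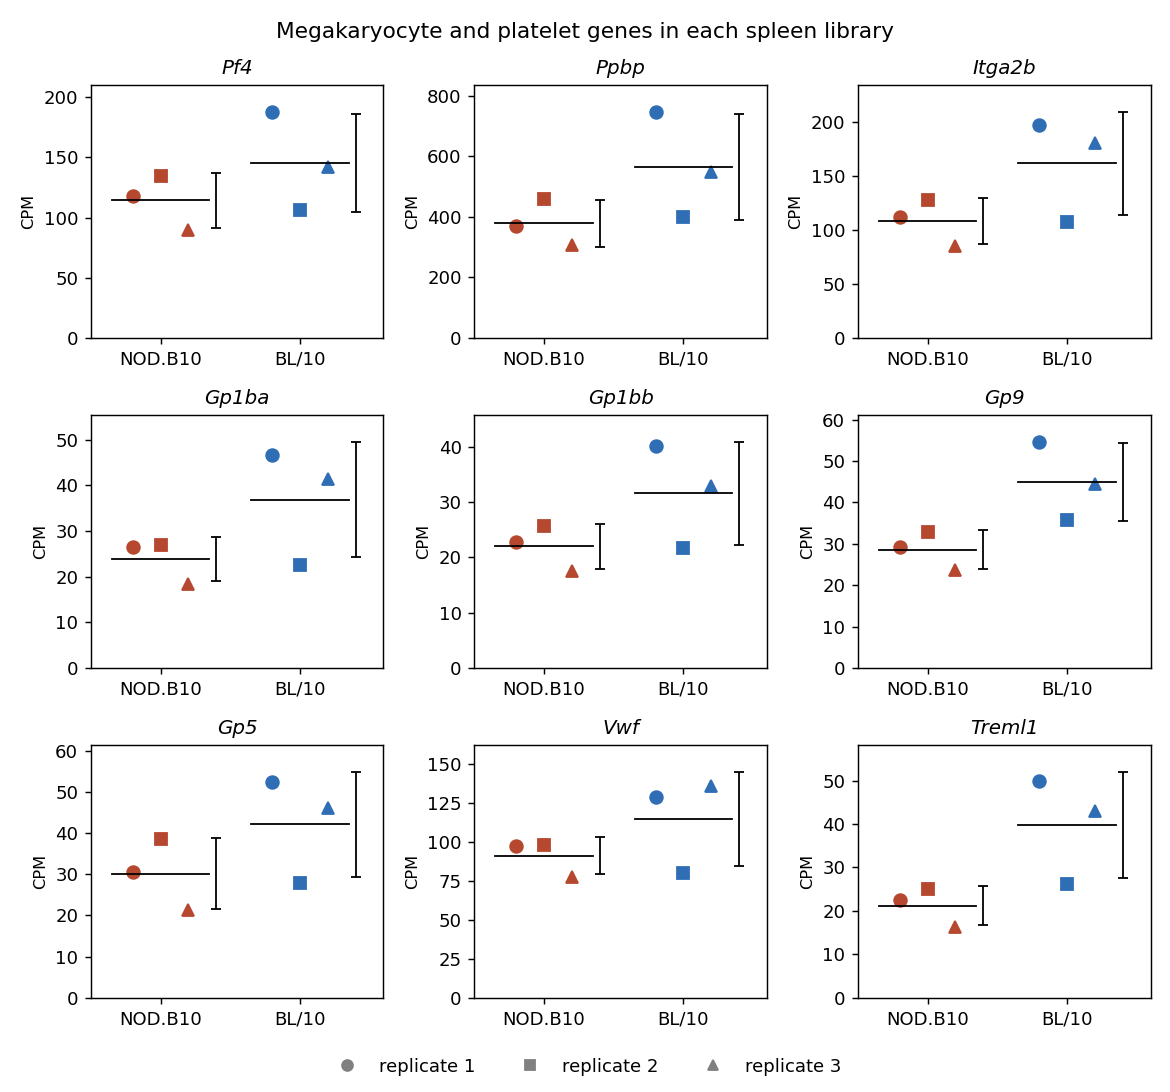
Level of each of the 9 genes in CPM (vertical axis, from 0) in the 3 NOD.B10 and 3 BL/10 libraries; horizontal lines are means of 3 libraries, error bars are SDs and the marker shape gives the replicate. BL/10 replicate 2 (blue square) lies near the NOD.B10 libraries in every panel, and the strains do not overlap for Gp9 and Treml1.

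The order of the libraries was nearly the same for every gene. NOD.B10 replicate 3 was the lowest of the 6 libraries for all 9 genes, and NOD.B10 replicate 2 was the highest of its strain for all 9. BL/10 replicates 1 and 3 lay above every NOD.B10 library for all 9 genes, and BL/10 replicate 1 was the highest of all for 8 of them. BL/10 replicate 2 was the lowest of its strain for all 9 and lay inside the NOD.B10 range for 7. The 9 genes together came to 828, 968 and 657 CPM in NOD.B10 and 1502, 828 and 1215 CPM in BL/10, with Ppbp making up 46.9% of the sum. In BL/10 the sum of replicate 3 lay between those of replicates 1 and 2. The median log2 fold change of the 9 genes was -0.33 without BL/10 replicate 1 and -0.77 without BL/10 replicate 2. With BL/10 replicate 2 left out, 4 of the 9 passed in edgeR (Itga2b, Gp1ba, Gp9 and Treml1), and the calls of Gp9 and Treml1 were lost with any other library left out.

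Over the 6 libraries the 36 pairs of these genes had a Pearson correlation of log2 CPM between 0.82 for Gp9 with Vwf and 0.99 for Itga2b with Gp1ba, with a median of 0.96. These correlations describe 6 libraries that include the difference between the strains. Without Vwf the lowest was 0.90, for Pf4 with Gp9.

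Compared per length, as CPM per kilobase of exon averaged over the 6 libraries, the levels ran from Ppbp at 435 ± 145 (SD, n = 6) over Pf4 at 180 ± 47.2 and Gp9 at 41.7 ± 12.7 down to Vwf at 6.42 ± 1.51. Ppbp, Pf4 and Gp9 were each above the next gene of the order in 6 of 6 libraries. Itga2b at 24.7 ± 8.08 and Treml1 at 24.4 ± 10.5 CPM per kilobase did not differ beyond their spread, Itga2b being higher in 3 of 6 libraries. Their order turned with the strain. In NOD.B10 the mean of Itga2b was 19.8 and that of Treml1 17.0 CPM per kilobase, and in BL/10 they were 29.6 and 31.9. The levels of Gp5 at 16.4 ± 5.34, Gp1bb at 14.2 ± 4.39 and Gp1ba at 11.2 ± 4.09 CPM per kilobase followed, neighbours in this order differing by less than their SDs although the order held in 6 of 6 libraries. On the 1288 exon bases that Gp1bb does not share with Sept5, its level was 20.8 CPM per kilobase, above that of Gp5, so the place of Gp1bb in the order depends on the length used. Of the subunits of the GPIb-IX-V complex, Gp9 was thus the highest per annotated exon length, and the order of the other subunits is uncertain.

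Ratios of counts within a library do not depend on its depth. Of 21 such ratios, computed after the counts had been seen, 7 had strains that did not overlap, 4 of them higher in BL/10 and 3 higher in NOD.B10. For levels of single genes, 38% of all genes tested did not overlap. The ratios share genes, with Pf4, Treml1 and Itga2b each in several of the 7, so these are not separate results. Ppbp had 3.12, 3.41 and 3.41 counts for each Pf4 count in NOD.B10 and 3.98, 3.76 and 3.86 in BL/10, so that the strains did not overlap (two-sided exact permutation p = 0.1, adjusted p = 0.3 over the 21 ratios). Treml1 had 0.200, 0.196 and 0.191 counts for each Itga2b count in NOD.B10 and 0.254, 0.243 and 0.238 in BL/10, with the same exact permutation p of 0.1 and adjusted p of 0.3. Both ratios are named because the strains did not overlap, so BL/10 replicate 2 lies with its own strain in them by that choice. Other ratios were higher in NOD.B10. Pf4 had 1.05, 1.06 and 1.06 counts for each Itga2b count in NOD.B10 and 0.953, 0.985 and 0.787 in BL/10, without overlap (exact permutation p = 0.1, adjusted p = 0.3). Vwf had 0.871, 0.773 and 0.911 counts for each Itga2b count in NOD.B10 and 0.654, 0.745 and 0.751 in BL/10, with the same exact permutation p and adjusted p. The remaining ratios without overlap were shares in the summed counts of the 9 genes, the share of Pf4 being higher in NOD.B10 and those of Gp9 and Treml1 higher in BL/10. In contrast, Gp1ba had 0.235, 0.212 and 0.215 counts for each Itga2b count in NOD.B10 and 0.237, 0.210 and 0.229 in BL/10, which overlapped (exact permutation p = 0.9, adjusted p = 0.945). With 3 libraries against 3 the smallest p of this test is 0.1, so none of these ratios could pass 0.05.

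Other genes of the lineage were taken from lists of receptors, granule cargo, transcription factors, and cytoskeleton and signalling. Of these 55 genes, all of them tested, 6 fell and 2 rose in edgeR at an adjusted p under 0.05, and 40 had a negative and 15 a positive log2 fold change, with a median of -0.26. The total of 8 of 55 is again close to the 17.3% of all genes. Exons of some of the genes named from these lists overlap those of another gene, by between 0.222% of the bases of Lyl1 and 10.7% of those of Cd9, which makes their counts uncertain to that extent.

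Among 14 receptor and surface genes, 2 fell and none rose, and the median log2 fold change was -0.34. Clec1b, the podoplanin receptor of platelets, fell by 1.15 on the log2 scale with an SE of 0.23 (edgeR adjusted p = 0.0137). Its NOD.B10 libraries lay at 40.7, 46.1 and 27.6 CPM and its BL/10 libraries at 108, 69.1 and 75.6 CPM, without overlap, and the call was lost without NOD.B10 replicate 1 (edgeR adjusted p = 0.0507). Cd9, a tetraspanin found on many cell types, fell by 0.51 on the log2 scale with an SE of 0.13 (edgeR adjusted p = 0.0302), a call that was lost without any 1 of NOD.B10 replicates 1, 2 and 3 or BL/10 replicate 3, at adjusted p up to 0.119. Itgb3 encodes the beta chain that pairs with the product of Itga2b. It was at 181 ± 25.7 CPM in NOD.B10 and 256 ± 69.5 CPM in BL/10, a log2 fold change of -0.50 with an SE of 0.21 (edgeR adjusted p = 0.138). It passed without BL/10 replicate 2, as Itga2b did, with a log2 fold change of -0.71 (edgeR adjusted p = 0.0309). F2rl2, a thrombin receptor of mouse platelets, had a log2 fold change of -0.47 with an SE of 0.22 (edgeR adjusted p = 0.172). Leaving out each library, F2rl2 ran from -0.66 to -0.28.

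Of 14 genes of granule cargo and granule formation, 2 rose and 1 fell. F5, coagulation factor V, was at 42.7 ± 5.54 CPM in NOD.B10 and 76.5 ± 14.0 CPM in BL/10 and fell by 0.84 on the log2 scale with an SE of 0.16 (edgeR adjusted p = 0.0109); without NOD.B10 replicate 3 the adjusted p was 0.0502. Sparc and Clu, a matrix protein and a secreted chaperone that stromal cells of many tissues also make, moved the other way from the 9 genes. Sparc was at 521 ± 48.5 CPM in NOD.B10 and 286 ± 37.5 CPM in BL/10 and rose by a log2 fold change of 0.86 with an SE of 0.13 (edgeR adjusted p = 0.00460). Clu rose by a log2 fold change of 0.42 with an SE of 0.12 (edgeR adjusted p = 0.0447), and its call was lost with any 1 library left out other than BL/10 replicate 1, at adjusted p up to 0.172. That call was also lost with upper-quartile normalization (edgeR adjusted p = 0.0506) and with at least 10 counts in every library (0.0565). It was lost as well with the 26-week libraries only (edgeR adjusted p = 0.258), where BL/10 replicate 1 is alone in its strain and is assumed to vary like the NOD.B10 libraries. Thbs1, which encodes the adhesive granule protein thrombospondin, had a log2 fold change of -0.57 with an SE of 0.26 (edgeR adjusted p = 0.168). Srgn, the proteoglycan that holds granule contents in many blood cells, had one of 0.31 with an SE of 0.16 (edgeR adjusted p = 0.201). Leaving out each library, Thbs1 ran from -0.80 to -0.38 and Srgn from 0.16 to 0.43. With the 26-week libraries only, Srgn was at 0.095.

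Among 13 transcription factors, 2 fell. Lyl1, a helix-loop-helix factor of early blood cells, fell by 0.43 on the log2 scale with an SE of 0.09 (edgeR adjusted p = 0.0192), a call lost without any 1 of NOD.B10 replicates 1 and 3 and BL/10 replicates 2 and 3, at adjusted p up to 0.0958, and with the 26-week libraries only (0.208). The factors shared with red cell precursors had another order of libraries than the 9 genes. Tal1 was at 214, 329 and 192 CPM in NOD.B10 and at 223, 448 and 368 CPM in BL/10 (log2 fold change -0.50, SE 0.29, edgeR adjusted p = 0.258). Leaving out each library, its log2 fold change ran from -0.77 to -0.27. Zfpm1, the partner of Gata1, was at 140, 180 and 111 CPM in NOD.B10 and at 141, 278 and 262 CPM in BL/10 (log2 fold change -0.66, SE 0.27, edgeR adjusted p = 0.135), and it passed without BL/10 replicate 1 (-0.92, adjusted p = 0.0144). With the 26-week libraries only, the log2 fold changes of Tal1 and Zfpm1 turned positive, at 0.14 and 0.030 (edgeR adjusted p 0.840 and 0.965). For both, BL/10 replicate 1 was the lowest of its strain, whereas it was the highest library for 8 of the 9 genes.

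Of 14 cytoskeleton and signalling genes, 1 fell. Tbxas1, thromboxane synthase, was at 43.1 ± 8.16 CPM in NOD.B10 and 66.1 ± 3.43 CPM in BL/10 and fell by 0.62 on the log2 scale with an SE of 0.14 (edgeR adjusted p = 0.0240), a call lost without BL/10 replicate 2 (0.0617) or replicate 3 (0.0773) and with the 26-week libraries only (0.175). Plek, a protein kinase C substrate of platelets and leukocytes, had a log2 fold change of -0.04 with an SE of 0.17 (edgeR adjusted p = 0.878), which was 0.16 without BL/10 replicate 1. Flna, the actin-binding filamin A, had one of -0.14 with an SE of 0.11 (edgeR adjusted p = 0.407). Leaving out each library, Flna ran from -0.20 to -0.09.

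**Figure D2:**
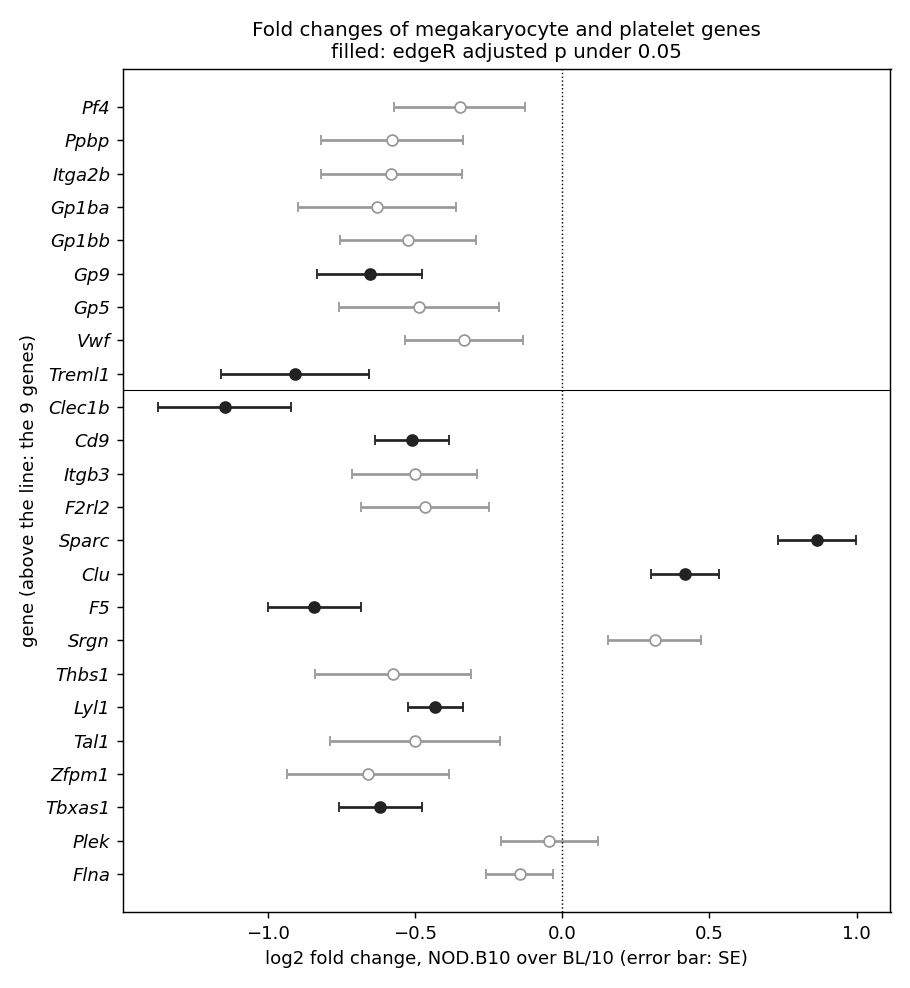
Log2 fold change of NOD.B10 over BL/10 (horizontal axis) with its SE for the 9 genes and for the named genes of the other lists; filled points have an edgeR adjusted p under 0.05. All 9 genes lie left of 0, from -0.91 for Treml1 to -0.33 for Vwf, and Sparc, Clu and Srgn lie right of it.

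The genes whose levels over the 6 libraries were most like the mean standardized profile of the 9 genes were F2rl2 (Pearson r of log2 CPM 0.997), Alox12, Sytl4, Mfap3l, Mmrn1, Pde5a, Itgb3, Tubb1, Thbs1 and P2rx1 (0.985). Of these 10, 7 are in the lists above, and Sytl4, Mfap3l and Pde5a are in none of the lists. Of 14209 genes with a mean of at least 1 CPM, 100 (0.704%) had a correlation of at least 0.9 with this profile, and 15 of the 55 other lineage genes did. The transcription factors were less like it, with a correlation of 0.40 for Gata1, 0.35 for Nfe2 and 0.16 for Tal1, and Sparc had one of -0.61. These are descriptions of 6 libraries, with the strain difference included.

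Markers of other cells also differed between the libraries. The summed level of 20 erythroid genes was 45094, 54182 and 30491 CPM in NOD.B10 and 33590, 67123 and 74491 CPM in BL/10. BL/10 replicate 1 had the lowest erythroid sum of its strain and the highest sum of the 9 genes. Of the erythroid genes 1 fell in edgeR at an adjusted p under 0.05, and the median of the 20 log2 fold changes was -0.59. Hbb-bs, a beta globin, made up 43.8% of the sum. The gene that fell was the alpha globin Hba-a2 (log2 fold change -8.93, SE 0.48, edgeR adjusted p = 4.54e-05). Its reads may be uncertain, since Hba-a1 is a near-identical copy, and how reads were divided between these copies was not tested. The erythropoietin receptor Epor had a log2 fold change of -0.86 with an SE of 0.25 (edgeR adjusted p = 0.0548). Of 10 proliferation genes 0 passed in edgeR, where 5 had an unadjusted p under 0.05, while DESeq2 called 5 and limma-voom 3 as lower, with Aurkb and Kif11 of smallest p (log2 fold changes -0.75 and -0.81, edgeR adjusted p 0.0518 and 0.0738). Their sum, with Mki67 making up 52.2%, was 2158, 3232 and 2028 CPM in NOD.B10 and 2450, 5023 and 3690 CPM in BL/10.

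All 14 neutrophil genes fell, with a median log2 fold change of -1.99, S100a8 and Camp having the smallest p (log2 fold changes -2.29 and -2.40, edgeR adjusted p 0.00152 and 0.00188). Their sum, of which S100a9 made up 43.6%, was 2311, 2615 and 2295 CPM in NOD.B10 and 6435, 13577 and 11862 CPM in BL/10. BL/10 replicate 1, with the most reads of the 9 genes, had the lowest neutrophil sum of its strain, and BL/10 replicate 2, with the fewest of its strain, had the highest. Of 15 genes of pancreatic acinar cells 12 were tested and all 12 fell. Their sum was 31.5, 30.4 and 22.7 CPM in NOD.B10 and 13669, 2095 and 112 CPM in BL/10, or 1.38% of all counts in BL/10 replicate 1. Cela1, an elastase, was the most abundant, at 28.3, 25.6 and 18.2 CPM in NOD.B10 and 2320, 363 and 74.0 CPM in BL/10. Ctrb1 and Cela2a had the smallest p (log2 fold changes -10.00 and -10.74, edgeR adjusted p 0.0149 and 0.0155), and Cuzd1, Try4 and Try5, which were not tested, had 0 counts in NOD.B10 replicates 1 and 3, which allows a level of up to 0.179 and 0.169 CPM. Without the library of highest acinar sum, BL/10 replicate 1, the log2 fold changes of Gp9 and Treml1 were -0.50 and -0.72 (edgeR adjusted p 0.0658 and 0.0728). The part of these other cells in the levels of the 9 genes was not tested.

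**Figure D3:**
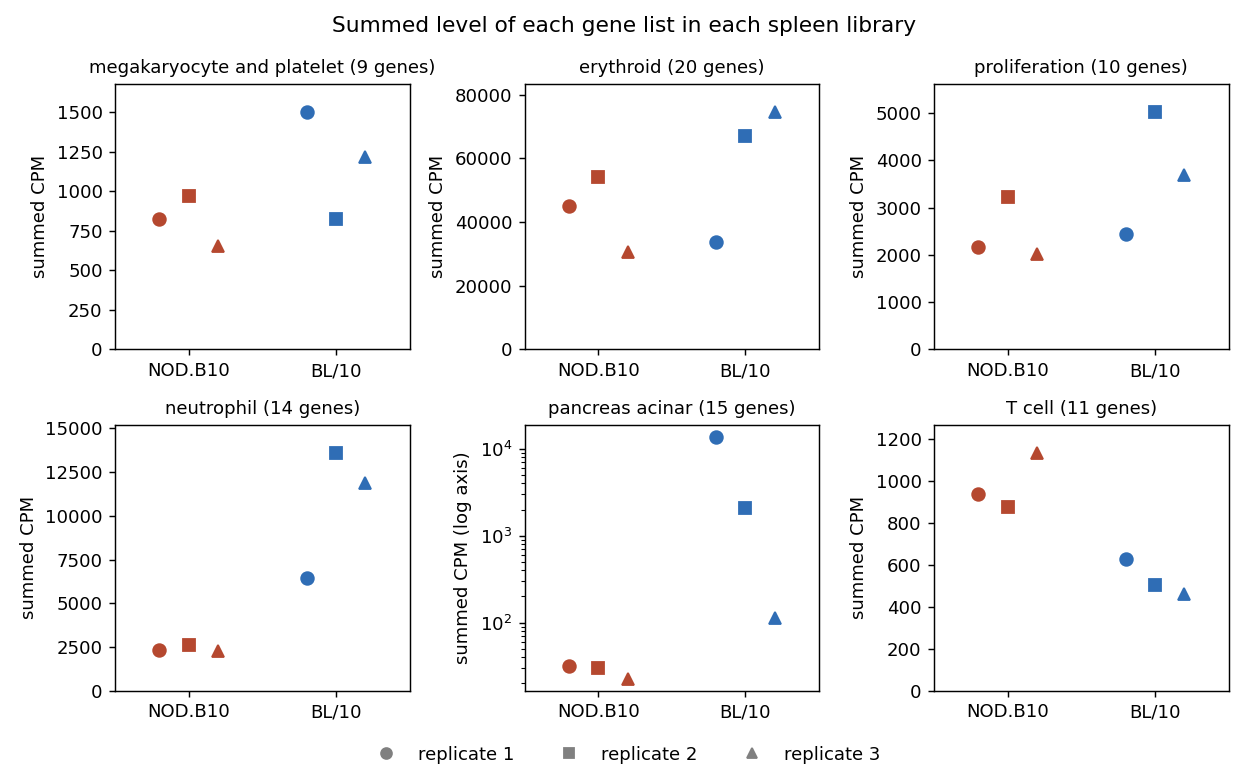
Summed CPM (vertical axis, logarithmic for the pancreas acinar genes) of 6 gene lists in the 3 NOD.B10 and 3 BL/10 libraries, with the marker shape giving the replicate. BL/10 replicate 1 (blue circle) is the highest library for the 9 megakaryocyte and platelet genes at 1502 CPM and for the acinar genes at 13669 CPM, and the lowest BL/10 library for the erythroid, proliferation and neutrophil genes.

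Because these genes moved together over the libraries, the 250 bases upstream of their start were searched for short motifs. RefSeq sequences of GRCm38.p6 were at hand for 8 of the 9 genes, the exception being Vwf. For 7 of these 8 the bases after the start matched a transcript of the gene. In Gp5 the longest match was 25 bases, and an intron within the bases compared would end such a match. Its window begins at 30310782, beside the annotated end of the gene at 30310779 (minus strand). The GATA motifs AGATAA and TGATAA and the ETS motifs AGGAAG and CGGAAG were looked for on both strands. An ETS motif was present in 6 of the 8 genes and in 39.2% of 32851 promoters, and a GATA motif in 2 of the 8 and in 16.6% of all promoters. Both were present in Gp1ba and Gp5 and in 5.49% of all promoters. Each of the 8 genes has 1 promoter in the table, whereas all promoters belong to 27025 genes, some with several. Of 54 promoters of 45 other lineage genes, 28 (51.9%) held an ETS motif, 9 (16.7%) a GATA motif and 2 (3.70%) both. A match is a run of letters in a window and not a site of binding, and most of the window of Itga2b (239 of 250 bases) lies inside the gene as annotated in the deposited table.

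The promoters of Gp1ba and Gp5 are shown because they hold both motifs, and those of Gp9 and Treml1 because these genes passed the test. Each runs 5′ to 3′ along the strand of its gene and ends at the base before the RefSeq start, with motif matches in capitals. They lie at chr11:70638872-70639121, plus strand (Gp1ba), chr16:30310782-30311031, minus strand (Gp5), chr6:87777820-87778069, plus strand (Gp9) and chr17:48359666-48359915, plus strand (Treml1). Gp1ba has TGATAA on its own strand and again, as TTATCA, on the other. Gp5 has AGATAA on the other strand at both places, as TTATCT. The capitals CTTCCT in Gp1ba, Gp5 and Gp9 are the ETS motif AGGAAG on the other strand, and Treml1 has no match.
Gp1ba: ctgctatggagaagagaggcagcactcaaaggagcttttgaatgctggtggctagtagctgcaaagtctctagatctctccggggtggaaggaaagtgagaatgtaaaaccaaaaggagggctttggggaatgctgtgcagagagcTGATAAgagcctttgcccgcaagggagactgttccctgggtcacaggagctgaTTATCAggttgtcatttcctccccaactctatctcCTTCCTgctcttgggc
Gp5: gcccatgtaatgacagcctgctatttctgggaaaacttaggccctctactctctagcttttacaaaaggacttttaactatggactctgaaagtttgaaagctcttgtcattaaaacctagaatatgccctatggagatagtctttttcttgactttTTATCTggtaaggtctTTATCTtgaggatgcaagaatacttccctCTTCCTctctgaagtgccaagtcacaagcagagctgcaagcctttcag
Gp9: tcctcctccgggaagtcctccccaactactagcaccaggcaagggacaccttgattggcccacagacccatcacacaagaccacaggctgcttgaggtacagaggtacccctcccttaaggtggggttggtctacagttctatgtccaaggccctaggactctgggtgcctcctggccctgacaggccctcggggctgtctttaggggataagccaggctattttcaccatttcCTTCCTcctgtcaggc
Treml1: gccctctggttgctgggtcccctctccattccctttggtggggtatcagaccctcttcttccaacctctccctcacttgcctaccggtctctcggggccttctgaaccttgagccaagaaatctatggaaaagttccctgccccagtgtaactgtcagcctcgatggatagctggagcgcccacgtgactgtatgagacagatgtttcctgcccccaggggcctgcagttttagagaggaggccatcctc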

How the data were processed

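Spleen RNA of 6 female mice was sequenced as single-end reads. The deposited values are raw counts of reads per gene and library, which the authors made with featureCounts version 1.5.1 on exons of Ensembl annotation 84 (GRCm38), without strand. The deposited table also holds the exon length of each gene, a value of another kind that belongs to no sample. The study's methods name Tophat2 as aligner, and the submitters' processing notes name HISAT2 version 2.0.5 and bcl2fastq. Gene symbols came from GENCODE M21, and 47224 of 47729 identifiers matched. Strains followed the descriptions and column names, which contradict the titles.

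The analysis ran in R (version 4.3.3) and used edgeR (4.0.16), with limma (3.58.1) and DESeq2 (1.42.0) as alternatives. After filterByExpr and TMM normalization, NOD.B10 was set against BL/10 by the quasi-likelihood test of edgeR, with Benjamini-Hochberg adjustment over all genes tested and a threshold of 0.05. The SE of a log2 fold change was its size divided by the square root of F. The test was checked on simulated counts with the same spread set for every gene. That check does not show how the test does at the spread of these libraries. Total counts were between 15662712 and 18298451 per library, and a floor of 3 counts corresponds to between 0.163 and 0.201 CPM, which covers counting error only. The design text calls the libraries biological replicates. No pair of libraries of a strain agreed within counting noise, as copies of 1 library would (chi-square per degree of freedom between 12.5 and 76.0).

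The named genes are the 9 genes; from each list of other lineage genes every gene past the threshold, up to 5 each way, and the 2 most abundant per length that did not pass; from each list of other cells the most abundant gene and up to 2 of smallest p; and the 10 genes most like the profile of the 9. Gata1 and Nfe2 were named after their values were seen. Some genes that the rule takes are not reported here. The members and lists were chosen with earlier results of these data known. The ratios, the overlap of exons and the correlation threshold of 0.9 were chosen after counts had been seen. Alternatives were other tests, normalizations, filters, a stricter threshold, a replicate block, the 26-week libraries only, and leaving out each library. Figures were drawn with matplotlib version 3.10.9.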

Additional observations from a re-analysis of the deposited data

How the results depend on the processing

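All 9 genes kept a negative log2 fold change under the 16 alternatives tried, and the median of the 9 lay between -0.87 and -0.33. No scaling moved the median of all genes by more than 0.03. Gp9 and Treml1 each lost the call under 9 of the 16, and DESeq2 and limma-voom with quality weights called both. The number of the 9 genes called, 2 in the edgeR test, was 0 with upper-quartile normalization, 0 with at least 10 counts in every library, 0 at an adjusted p under 0.01, and from 0 to 4 when leaving out each library, the 4 being without BL/10 replicate 2. With the 26-week libraries only it was 3, with BL/10 replicate 1 alone in its strain and assumed to vary like the NOD.B10 libraries.

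Over the 55 other lineage genes, 8 calls became 16 with DESeq2, 13 without a filter beyond 1 count, 2 at an adjusted p under 0.01, and from 4 to 16 when leaving out each library, the 16 being without BL/10 replicate 1. Over all genes, 2656 calls became 1035 at an adjusted p under 0.01, 1001 with the 26-week libraries only, and from 1269 to 4107 when leaving out each library, the lowest without NOD.B10 replicate 1 and the highest without BL/10 replicate 1. The log2 fold change turned positive for Tal1 (0.14) and Zfpm1 (0.030) with the 26-week libraries only, and for Plek with limma-voom (0.043); leaving out each library, Plek ran from -0.15 to 0.16, positive without BL/10 replicate 1. A stricter threshold calls fewer genes by construction; the cause of the other changes was not tested.

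With the replicate number as a block, 0 of the 9 genes, 9 of the 55 other genes and 2889 of all genes were called. The correlations of same-numbered libraries were 0.07, 0.30 and -0.08, and those of libraries with different numbers ran from -0.27 to 0.22. Whether the numbers pair the samples cannot be told from so few libraries. With 3 libraries a strain, small differences may go undetected.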

Other observations

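Lists of other spleen cells gave further differences between the strains, in edgeR at an adjusted p under 0.05. Of all genes tested 17.3% passed. Of 11 T cell genes 8 rose, with a summed level of 938, 874 and 1131 CPM in NOD.B10 and 628, 502 and 463 CPM in BL/10, of which the coreceptor Cd4 made up 20.6%. The CD3 chains Cd3e and Cd3d had the smallest p, with log2 fold changes of 1.42 (SE 0.12, edgeR adjusted p = 0.000414) and 1.13 (SE 0.14, edgeR adjusted p = 0.00168). Of 7 B cell genes 0 passed in edgeR, DESeq2 or limma-voom, and 0 had an unadjusted p under 0.05 in edgeR. Their sum was 3786, 3208 and 4092 CPM in NOD.B10 and 4495, 2441 and 2605 CPM in BL/10, with Ms4a1 making up 34.5%, and Cd22 had a log2 fold change of 0.47 with an SE of 0.22 (edgeR adjusted p = 0.179).

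Of 9 genes of red pulp macrophages 2 fell and 1 rose, and Hmox1, heme oxygenase, made up 23.1% of their sum. Cd5l fell by 1.63 on the log2 scale with an SE of 0.16 (edgeR adjusted p = 0.000666), and the iron exporter Slc40a1 fell by 0.62 with an SE of 0.11 (edgeR adjusted p = 0.00985). Of 6 genes of stem and progenitor cells 1 fell and 1 rose, with Kit making up 41.6% of their sum. Gata2 fell by 0.79 on the log2 scale with an SE of 0.15 (edgeR adjusted p = 0.0121), and Procr rose by a log2 fold change of 0.44 with an SE of 0.12 (edgeR adjusted p = 0.0447).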
